A study of Rattus norvegicus with 6 samples.

Results

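The endothelial and pericyte markers described here are 10 genes of the vessel wall: Lyve1, Stab1, Stab2, Pecam1, Kdr, Flt1, Tek, Cdh5, Rgs5 and Pdgfrb. They were taken as every probe whose gene symbol in the authors' deposited table equals one of these names. Of the 10 genes, 9 had a probe, out of 19958 genes and 30367 gene probes on the array, and each of the 9 had 1 probe. Stab1 matched no probe by symbol, gene ID or accession and is not analysed here. The 9 probes were read from 17 spots per array, 2 for each gene except Stab2, which had 1. None of these spots was marked as an outlier by the scanner software.

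RNA was measured on 6 one-colour rat arrays, all on 1 slide. FAO cells, a rat hepatoma line of liver parenchymal origin, were exposed for 24 h to 100 µM deferoxamine (DFO), an iron chelator, or left without it. Wistar rats, called mice in parts of the labels, ate an AIN-93G purified diet that lacked iron or held it for 4 weeks, after which liver and kidney RNA was taken. Sex and age of the rats were not given in the labels used here. Each group was 1 array, made from RNA pooled from 3 cultures (FAO cells, DFO or untreated) or from 6 animals (liver iron-free, liver iron-sufficient, kidney iron-free and kidney iron-sufficient). With 1 array per group there was no replicate check between animals or cultures and no test. A gene was called by size alone, at 2-fold or more (1 on the log2 scale), and each ± below is a standard error pooled from repeated spots of probes of like signal, which covers technical spot noise only.

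Blood vessels are lined by endothelial cells and held by mural cells, the pericytes and smooth muscle cells outside them. Vascular endothelial growth factor acts on endothelial cells through the receptors encoded by Kdr and Flt1, angiopoietins act through the receptor encoded by Tek, and platelet-derived growth factor B from endothelial cells binds the receptor encoded by Pdgfrb on mural cells. Liver sinusoids have an unusual fenestrated endothelium that clears waste from blood through scavenger receptors such as stabilin-2 and also carries the hyaluronan receptor LYVE1, which elsewhere marks lymphatic vessels. Kidney endothelium is split between fenestrated glomerular and peritubular capillaries and the arterioles and vasa recta. A cultured hepatoma line has none of these cells, so the FAO arrays show what each probe reads without vessels.

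Array signal is given as scaled intensity, the deposited background-subtracted signal brought to a common 75th percentile. Levels were compared between arrays for the same probe and not between probes, since probes differ in brightness. Detection on an array, here called well above background, required the scanner's flag on every spot of the probe. The share of gene probes that passed was 37.7% to 48.8% per array. Blocks of 16 by 16 spots whose median departure from the probe's own median was over 0.25 on the log2 scale were counted as noisy: of 264 blocks, iron-sufficient liver had 53, DFO-treated FAO cells 12 and the other arrays 0 to 5. The tissue labels were checked with albumin (Alb) and uromodulin (Umod). Alb read 142826 and 86391 in iron-free and iron-sufficient liver, 43497 and 41323 in DFO and untreated FAO cells, and was dark in both kidneys, while Umod read 164908 and 200247 in iron-free and iron-sufficient kidney and was not well above background on the other 4 arrays.

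The markers were detected mainly in liver, less often in kidney, and hardly in the cell line. Of 54 marker and array pairs, 24 were well above background: 8 of 9 markers in iron-free liver, 7 in iron-sufficient liver, 5 in iron-free kidney, 3 in iron-sufficient kidney, 1 in DFO-treated FAO cells and 0 in untreated FAO cells. Of all gene probes 37.7% passed in iron-sufficient kidney, so the 3 of 9 markers there were not more often detected than other probes. Only Cdh5 in DFO-treated FAO cells passed in the cell line. Tek passed on no array and Flt1 on 1. The lowest detected signal was 37.5 and 45.0 in iron-free and iron-sufficient liver, but 92.6 and 105 in iron-free and iron-sufficient kidney. The counts thus do not compare the tissues at a like signal. Flt1 passed in iron-free liver at 72.2 and did not in iron-free kidney at 137.

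**Figure D1:**
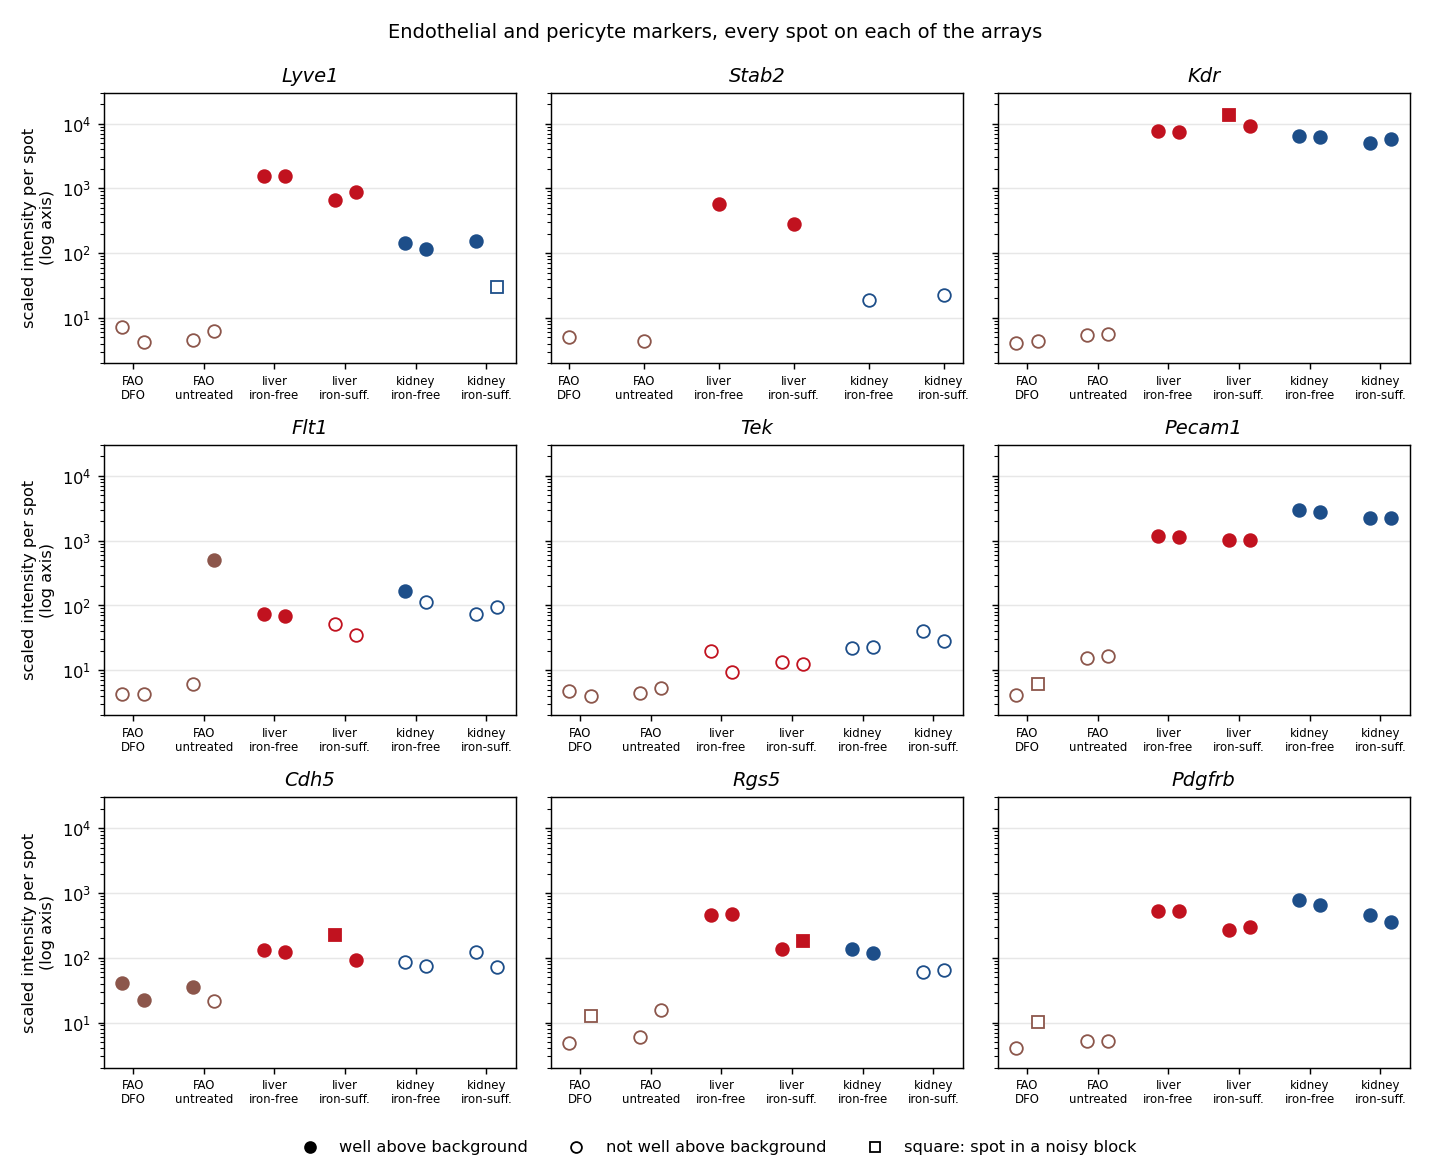
Scaled intensity (log axis) of every spot of the 9 markers on each of the 6 arrays, 1 panel per gene, with filled symbols for spots well above background, open symbols for the others and squares for spots in noisy blocks. Heights can be compared within a panel only. Kdr, Pecam1 and Pdgfrb are filled on the 4 tissue arrays and open on both FAO arrays, Stab2 is filled in liver only, and 1 spot of Flt1 in untreated FAO cells stands at 502 beside its partner at 6.03.

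The 3 markers called in the liver diet comparison described further on were Lyve1, Stab2 and Rgs5, and the 250 bases before their annotated starts are shown to set these genes side by side. The sequences are RefSeq's for assembly GRCr8, 5′ to 3′ on the gene's strand, and capitals mark matches to AGGAAG, a core bound by ETS factors, or to its reverse complement. Lyve1 lies at chr1:174410978-174411227 on the minus strand, Stab2 at chr7:23320563-23320812 on the minus strand, and Rgs5 at chr13:84380827-84381076 on the plus strand.
Lyve1: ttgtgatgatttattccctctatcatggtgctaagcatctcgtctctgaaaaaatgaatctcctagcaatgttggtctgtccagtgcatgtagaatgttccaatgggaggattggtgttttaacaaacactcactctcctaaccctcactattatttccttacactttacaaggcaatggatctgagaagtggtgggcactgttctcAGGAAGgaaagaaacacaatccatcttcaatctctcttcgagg
Stab2: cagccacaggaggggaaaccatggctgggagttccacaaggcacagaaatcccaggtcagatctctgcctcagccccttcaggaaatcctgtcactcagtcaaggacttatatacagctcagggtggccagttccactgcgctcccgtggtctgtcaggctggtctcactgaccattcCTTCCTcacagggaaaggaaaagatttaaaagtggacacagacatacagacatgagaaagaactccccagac
Rgs5: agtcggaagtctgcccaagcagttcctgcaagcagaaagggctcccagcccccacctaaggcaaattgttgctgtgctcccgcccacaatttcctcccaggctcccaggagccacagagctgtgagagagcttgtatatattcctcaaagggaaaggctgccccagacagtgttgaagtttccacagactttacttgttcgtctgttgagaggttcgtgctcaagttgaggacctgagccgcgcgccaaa

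AGGAAG on either strand was found 43 bases upstream of the start in Lyve1, 72 bases upstream in Stab2, and not in the Rgs5 window. Of 33469 rat promoters of this length, 29.5% held that motif, and 3 of the 6 markers with a promoter in the table did (Lyve1, Stab2 and Flt1; the others are Stab1, Kdr and Rgs5). On both strands, the hypoxia-factor core ACGTG was in 0 of the 6 and in 16.6% of all promoters, and its variant GCGTG was in 2 of the 6 (Kdr and Flt1) and in 25.9% of all. The GATA core AGATAA was in 0 of the 6 (10.3% of all), and TATAAA was in 1, Flt1 (12.9% of all). ACGTG and GCGTG differ only in their first letter and AGATAA and TATAAA share the letters ATAA, and a match here is a match of letters only.

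Lyve1 and Stab2, the scavenger and hyaluronan receptors of sinusoidal endothelium, were brightest in liver. Lyve1 read 1566 in iron-free liver, 767 in iron-sufficient liver, 131 in iron-free kidney and 67.6 in iron-sufficient kidney, against 5.55 and 5.31 in DFO-treated and untreated FAO cells. The iron-sufficient kidney value averaged 2 spots that disagreed, 154 and 29.8, the second of them in a noisy block. Stab2 read 575 in iron-free and 285 in iron-sufficient liver. Its single spot read 19.1 and 22.2 in iron-free and iron-sufficient kidney and 5.07 and 4.45 in DFO-treated and untreated FAO cells, none of which was well above background. For both genes the 2 livers stood above all other arrays, and iron-free liver stood above iron-sufficient liver by more than 2 spot standard errors.

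Of the growth factor receptors, Kdr, which encodes the main signalling receptor for vascular endothelial growth factor, was bright in both tissues. It read 7534 in iron-free liver, 11199 in iron-sufficient liver, 6378 in iron-free kidney and 5393 in iron-sufficient kidney, against 4.26 and 5.53 in DFO-treated and untreated FAO cells. Iron-sufficient liver was highest by more than 2 spot standard errors, and the neighbours among the other 3 tissue arrays did not differ by that much. The 2 iron-sufficient liver spots were 13718, in a noisy block, and 9142. Iron-free minus iron-sufficient liver was -0.57 on the log2 scale, but -0.26 without spots in noisy blocks. It was 0.01 when arrays were scaled to the median of detected probes, so the lead of iron-sufficient liver did not hold under every setting. Flt1, a receptor that also acts as a decoy for the same ligand, read 72.2 in iron-free liver and 43.0 in iron-sufficient liver, 137 in iron-free and 83.1 in iron-sufficient kidney, and 4.25 in DFO-treated FAO cells, and only the iron-free liver value was well above background. In untreated FAO cells its 2 spots read 6.03 and 502 outside any noisy block, so the mean of 55.0 describes neither. Tek read 4.41 to 33.6 over the 6 arrays, not well above background on any of them.

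The junction genes differed in how they were ordered over the arrays. Pecam1, an adhesion molecule of endothelial cells, platelets and leukocytes, read 2834 in iron-free kidney, 2240 in iron-sufficient kidney, 1157 in iron-free liver and 1023 in iron-sufficient liver, against 5.03 in DFO-treated FAO cells and spots of 15.4 and 16.5 in untreated FAO cells. Both kidneys stood above both livers by more than 2 spot standard errors, while the 2 diets of a tissue did not differ by that much. Cdh5, which encodes the cadherin of endothelial adherens junctions, read 127 in iron-free liver, 144 in iron-sufficient liver, 80.3 in iron-free kidney, 94.1 in iron-sufficient kidney, 30.0 in DFO-treated FAO cells and 27.6 in untreated FAO cells. No neighbours in this order differed beyond 2 spot standard errors. Of the iron-sufficient liver spots of Cdh5, 228 was in a noisy block and its partner read 91.0.

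The mural markers were dark in FAO cells and differed in their order over the tissue arrays. Rgs5, a regulator of G protein signalling that marks pericytes, read 460 in iron-free liver, 157 in iron-sufficient liver, 126 in iron-free kidney and 61.9 in iron-sufficient kidney, the last not well above background, against 7.84 and 9.65 in DFO-treated and untreated FAO cells. Iron-free liver stood apart, and iron-sufficient liver and iron-free kidney did not differ beyond 2 spot standard errors. Pdgfrb read 710 in iron-free kidney, 524 in iron-free liver, 407 in iron-sufficient kidney and 286 in iron-sufficient liver, against 6.36 and 5.15 in DFO-treated and untreated FAO cells. Iron-free kidney stood above iron-free liver by more than 2 spot standard errors, and the next neighbours in order did not differ by that much. In each tissue the iron-free array was the higher one for both mural genes, but the Rgs5 gap in kidney (1.02 ± 0.93) was within 2 spot standard errors. Over all markers, 7 of 15 neighbouring pairs with both arrays well above background differed by more than 2 spot standard errors.

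Set against the cell line, the tissues were higher in every marker that could be measured, as far as bounds can tell. Where only 1 array of a pair is well above background the fold is a bound: the bright signal is divided by the dim probe's own signal or by the lowest detected signal of the dim array, whichever is higher. In iron-sufficient liver against untreated FAO cells, 7 of 7 measured markers were higher, all as bounds, where 52.3% of 11235 measured genes were called, 26.2% higher and 26.1% lower (2948 and 2930 genes, against 2230 and 4545 when arrays were scaled to the median of detected probes). Kdr was at least 526-fold higher, Pecam1 at least 48.0-fold, Lyve1 at least 36.0-fold, Pdgfrb and Stab2 each at least 13.4-fold, Rgs5 at least 7.37-fold and Cdh5 at least 5.23-fold. Without its spot in a noisy block the bound of Cdh5 was 1.70 on the log2 scale, against 2.39 with it. In iron-sufficient kidney against untreated FAO cells, 3 of 3 were higher, where 43.4% of 11263 genes were called, 26.0% higher and 17.4% lower (2932 and 1960 genes, against 1882 and 4759 under that scaling). Kdr was at least 253-fold higher, Pecam1 at least 105-fold and Pdgfrb at least 19.1-fold. Both comparisons use the same untreated FAO array. Each of these markers passed through the tissue array alone, since none was well above background in untreated FAO cells, so the direction was fixed by that filter.

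Iron-sufficient liver and kidney differed in the levels of some vessel genes, though the calls of Kdr and Pecam1 depended on the setting. Lyve1 was higher in liver, by 2.32 on the log2 scale without its kidney spot in a noisy block, when it was measured on both arrays, and by 2.87 as the bound that spot gave. Stab2 was at least 2.71-fold higher in liver, Kdr was 2.08-fold higher in liver (1.05 ± 0.34) and Pecam1 was 2.19-fold lower in liver (-1.13 ± 0.28). Of 7 measured markers, 3 were higher and 1 lower in liver, where 39.4% of 9818 genes were called, 14.1% higher and 25.3% lower (1387 and 2484 genes, against 2166 and 1835 with the median of detected probes and 1882 and 2001 with the 75th percentile over all probes). Pdgfrb differed by -0.51 ± 0.35, and the bounds of Cdh5 and Rgs5 were 0.46 and 0.58, none of them a call. Lyve1, Stab2, Cdh5 and Rgs5 passed through the liver array alone, so they could only come out higher in liver, and of the 3 markers measured on both arrays 1 was higher and 1 lower. Without spots in noisy blocks Kdr was at 0.77 and no longer called. The lower call of Pecam1 was lost under 4 settings, at -0.69 with the median of detected probes, -0.82 both with the 75th percentile over all probes and with the authors' deposited log2 values, and -0.93 with normexp, where Kdr was at 0.63. Lyve1 and Stab2 were called under all of these 4.

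**Figure D2:**
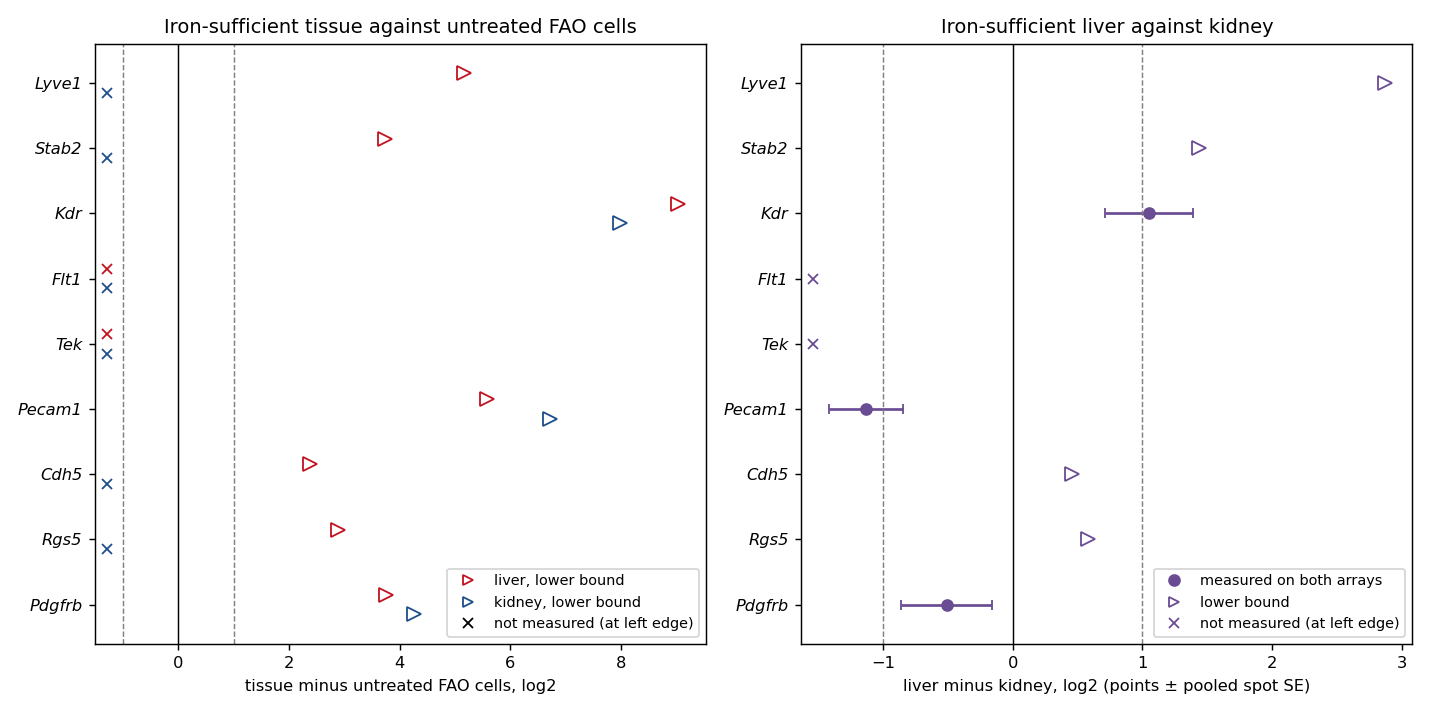
Differences on the log2 scale for each marker: iron-sufficient liver and iron-sufficient kidney minus untreated FAO cells (left) and iron-sufficient liver minus iron-sufficient kidney (right). Filled points are measured on both arrays with ± pooled spot standard error, open triangles are lower bounds, crosses at the left edge are pairs not measured, and dashed lines mark 2-fold. On the left the bounds run from 2.39 for Cdh5 (1.70 without its spot in a noisy block) to 9.04 for Kdr, both in liver, and on the right Lyve1 and Pecam1 lie on opposite sides of 0.

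Wider lists of genes of the same cells were counted in iron-sufficient tissue, with genes measured on both arrays kept apart from those that passed through 1 array and whose direction that fixed. Of 20 measured pan-endothelial genes 17 were higher and 1 lower in liver than in untreated FAO cells, but 10 had passed through liver alone. Of the 9 measured on both arrays 7 were higher and 1 lower, where 25.2% of all genes so measured were higher. In kidney 17 of 21 were higher and 1 lower, 11 of them through kidney alone, and of the 8 measured on both arrays 6 were higher and 1 lower, where 26.0% of all genes so measured were higher. Plvap, which forms the diaphragms of fenestrae, was at least 72.5-fold higher in liver and at least 742-fold higher in kidney than in FAO cells. Between tissues, 2 of 21 pan-endothelial genes were higher and 10 lower in liver than in kidney (median -1.04, against -0.21 over all genes). Of the 17 measured on both arrays 1 was higher and 8 lower, where 19.8% of all genes so measured were lower, with Podxl, a sialomucin that podocytes carry too, 23.9-fold lower in liver and Plvap 10.2-fold lower in liver. Of 14 measured sinusoidal genes 6 were higher and 1 lower in liver, but 12 had passed through liver alone, all 6 higher ones among them, so the count gives no direction for the list. Dnase1l3, a secreted deoxyribonuclease, was at least 29.5-fold higher. Of 9 measured pericyte and smooth muscle genes 1 was higher and 5 lower in liver, where 14.1% of all measured genes were higher and 25.3% lower. However, 4 of the 9 had passed through kidney alone and could only come out lower. Of the 4 measured on both arrays 1 was higher and 1 lower, where 19.8% of all genes so measured were lower. Some of these lists hold genes that parenchymal cells also express, such as Aqp1, a water channel of the proximal tubule, 68.3-fold lower in liver.

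In liver the iron-free diet went with higher signal of the sinusoidal receptors and of Rgs5, while Pecam1, Cdh5 and Kdr were not called. Rgs5 was 2.93-fold higher in iron-free than in iron-sufficient liver (1.55 ± 0.38), Lyve1 2.04-fold higher (1.03 ± 0.26) and Stab2 2.02-fold higher (1.01 ± 0.43, from 1 spot per array). These 3 of 8 measured markers were called higher and 0 lower, where 9.29% of 10428 measured genes were called, 6.36% higher and 2.93% lower (663 and 306 genes, against 2120 and 78 with the median of detected probes). Of the 8, Flt1 alone had passed through the iron-free array only. The median of the 7 measured on both arrays was 0.87, against -0.06 over all genes so measured, of which 3.32% were higher. Pdgfrb had 0.87 ± 0.30, just inside the 2-fold limit, as Lyve1 and Stab2 were just outside it. Pecam1 had 0.18 ± 0.26, Cdh5 -0.19 ± 0.46 and Kdr -0.57 ± 0.27, and the bound of Flt1 was 0.68. In whole tissue RNA, a change in the number of cells of a type and a change in RNA per cell cannot be told apart.

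The single spots show technical spread within an array only. For Rgs5 the 2 iron-free liver spots were 451 and 469, against 137 and 181 in iron-sufficient liver. For Lyve1 they were 1555 and 1578 in iron-free liver, against 670 and 878 in iron-sufficient liver. For Pdgfrb they were 529 and 519 in iron-free liver, against 273 and 300 in iron-sufficient liver. By spot the log2 difference of Kdr was -0.84 and -0.30 and that of Cdh5 -0.81 and 0.44, the first spot of each gene lying in a noisy block of the iron-sufficient liver array.

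Rgs5 was called in 9 of 9 alternative settings, from 1.07 to 2.13. Lyve1 was called in 6 of 9, from 0.94 to 1.61, and Stab2 in 5 of 9, from 0.76 to 1.59. The settings were not independent checks. The mean over probes and no filter on dim probes could not change these values. Each of these genes had 1 probe and was well above background on both liver arrays. The authors' log2 values nearly repeated the 75th percentile over all probes, with Lyve1 at 0.97 and 0.98. With the 75th percentile taken over all probes, with normexp background correction or with the authors' deposited log2 values, Rgs5 alone was called. Without spots in noisy blocks Rgs5 was at 1.77, Lyve1 at 1.05, Stab2 at 1.03 and Pdgfrb at 0.89, while Kdr was at -0.26 and Cdh5 at 0.50. With the median of detected probes Flt1, a bound, was at 1.26 and Pdgfrb at 1.45, both then called. With that scaling Kdr was at 0.01 and Cdh5 at 0.39, and with normexp Pecam1 was at -0.02, so the sign of each of these 3 turned under at least 1 setting.

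**Figure D3:**
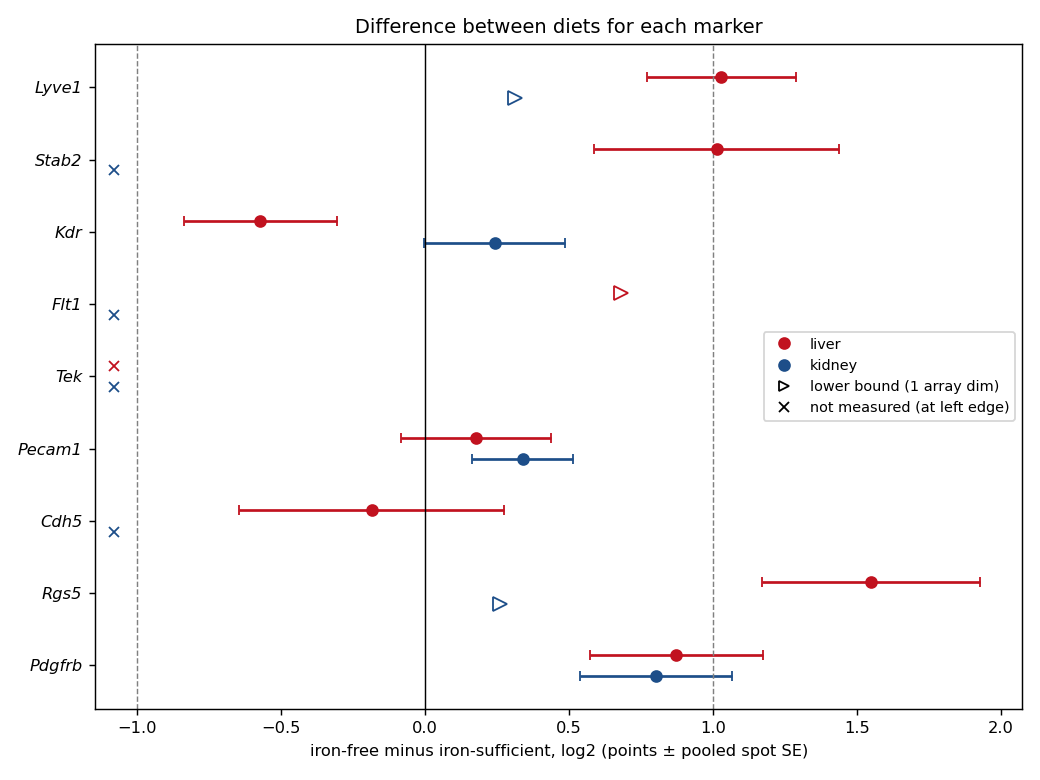
Iron-free minus iron-sufficient difference (log2) of each marker in liver (red) and kidney (blue), with ± pooled spot standard error for markers measured on both arrays, open triangles for lower bounds, crosses at the left edge for pairs not measured and dashed lines at 2-fold. In liver Rgs5 stands at 1.55, Lyve1 and Stab2 lie at the 2-fold line and Kdr at -0.57. In kidney no plotted value reaches the line, and Pdgfrb at 0.80 is the highest of the 3 markers measured on both arrays, while the bounds of Rgs5 and Lyve1 limit those genes from below only.

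In kidney no marker was called between diets: 0 of 5 measured markers, where 4.30% of 9092 measured genes were called, 3.06% higher and 1.24% lower (278 and 113 genes, against 402 and 79 with the median of detected probes). Of the 3 measured on both arrays, Pdgfrb was highest at 0.80 ± 0.26, with 767 and 657 in the iron-free spots against 457 and 362 in the iron-sufficient spots. Pecam1 had 0.34 ± 0.18, with 2928 and 2742 in the iron-free spots against 2279 and 2202 in the iron-sufficient spots. Kdr had 0.24 ± 0.25. The bounds were 0.26 for Rgs5 and 0.31 for Lyve1, and without its spot in a noisy block Lyve1 was measured at -0.19. Rgs5 and Lyve1 passed through the iron-free array alone. Rgs5 was not well above background in iron-sufficient kidney, and with no filter on dim probes it was at 1.02 and would be called. Whether the diet difference of Rgs5 or Lyve1 was unlike in liver and kidney was not tested.

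In FAO cells only Cdh5 gave a value between DFO and untreated cells, and it was not called. It was well above background on the DFO array, with spots of 40.6 and 22.1, against 34.9 and 21.8 on the untreated array, where the second spot was not, and its bound was 0.12 with a spot standard error of 1.33. The spots of the groups overlapped, and at that error a 2-fold change could not be detected or excluded. Thus 0 of 1 measured marker was called, where 10.4% of 10742 measured genes were called, 4.03% higher and 6.41% lower. If 1 of 2 spots above background were enough, Flt1 would be called lower in DFO-treated cells through its single bright untreated spot.

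The wider gene lists place these markers. In liver 0 of 21 measured pan-endothelial genes were called between diets in either direction (median 0.18, 19 measured on both arrays), where 9.29% of all measured genes were called. The summed scaled intensity of the pan-endothelial genes was 17727 in iron-free against 16451 in iron-sufficient liver. Of 17 sinusoidal endothelial genes 3 were higher and 0 lower in iron-free liver. Of the 14 measured on both arrays 2 were higher, where 3.32% of all genes so measured were, and their median was 0.27. The 3 were Fcgr2b, an inhibitory Fc receptor (1.04 ± 0.39), Clec1b, a podoplanin receptor also found on platelets (1.06 ± 0.46), and Wnt2, a signal from central endothelium, at least 2.92-fold higher. Wnt2 passed through the iron-free array alone and had no value left without spots in noisy blocks. Other sinusoidal genes moved less or the other way, with Dnase1l3 at 0.61 and Bmp2, which drives hepcidin in hepatocytes, at -0.62. Of 9 kidney and arterial endothelial genes, Igfbp7 was at least 2.17-fold higher (-0.19 without spots in noisy blocks) and Ehd3 at least 2.52-fold lower.

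Among pericyte and smooth muscle genes 5 of 14 measured were higher and 0 lower in iron-free liver, but 9 of the 14 had passed through the iron-free array alone and could only come out higher. Of the 5 measured on both arrays 2 were higher and 0 lower, with a median of 0.22, where 3.32% of all genes so measured were higher and 2.63% lower. These 2 were Abcc9 and Kcnj8. Abcc9, the sulphonylurea receptor subunit of the vascular potassium channel, was 3.97-fold higher (1.99 ± 0.38), with 833 in iron-free against 210 in iron-sufficient liver. Of the genes that passed through the iron-free array alone, Rgs4, a relative of Rgs5, was at least 11.5-fold higher, with 520 in iron-free against 19.0 in iron-sufficient liver. Ednrb, the endothelin B receptor that endothelial and stellate cells carry too, was at least 4.92-fold higher, and had no value left without spots in noisy blocks. The other 2, named because the list had so few, were Kcnj8, the pore partner of Abcc9 (1.12 ± 0.26), and Mcam, an adhesion molecule of mural and endothelial cells, at least 2.76-fold higher. The contractile genes Tagln, at -0.45 ± 0.60, and Mylk, at 0.22 ± 0.28, were not called, nor was any of 12 measured hepatic stellate cell genes (median 0.26).

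In kidney 2 of 13 measured pericyte and smooth muscle genes were higher and 0 lower in the iron-free group, but 5 of the 13 had passed through the iron-free array alone. Of the 8 measured on both arrays 1 was higher and 0 lower, with a median of 0.61, where 1.40% of all genes so measured were higher. Kcnj8 was 4.66-fold higher (2.22 ± 0.49), with 861 in iron-free against 185 in iron-sufficient kidney, while Abcc9 passed through the iron-free array alone, at least 2.01-fold higher, which is the threshold itself, with a spot standard error of 0.77 on the log2 scale. Kcnj8 was thus called higher in the iron-free group in each tissue from values measured on both arrays. Of 21 measured pan-endothelial genes 1 was higher, where 3.06% of all measured genes were higher. It was Robo4, at least 2.56-fold through the iron-free array alone, and it was at 0.01 without spots in noisy blocks. Of 4 measured sinusoidal genes Fcgr2b was at least 2.42-fold higher, also through the iron-free array alone, with a spot standard error of 1.09. That probe had 1 spot and also read 161 and 97.0 in DFO-treated and untreated FAO cells. The other Fcgr2b probe, with 9 spots, read 23.9 and 26.7 in iron-free and iron-sufficient kidney, not well above background in either.

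**Figure D4:**
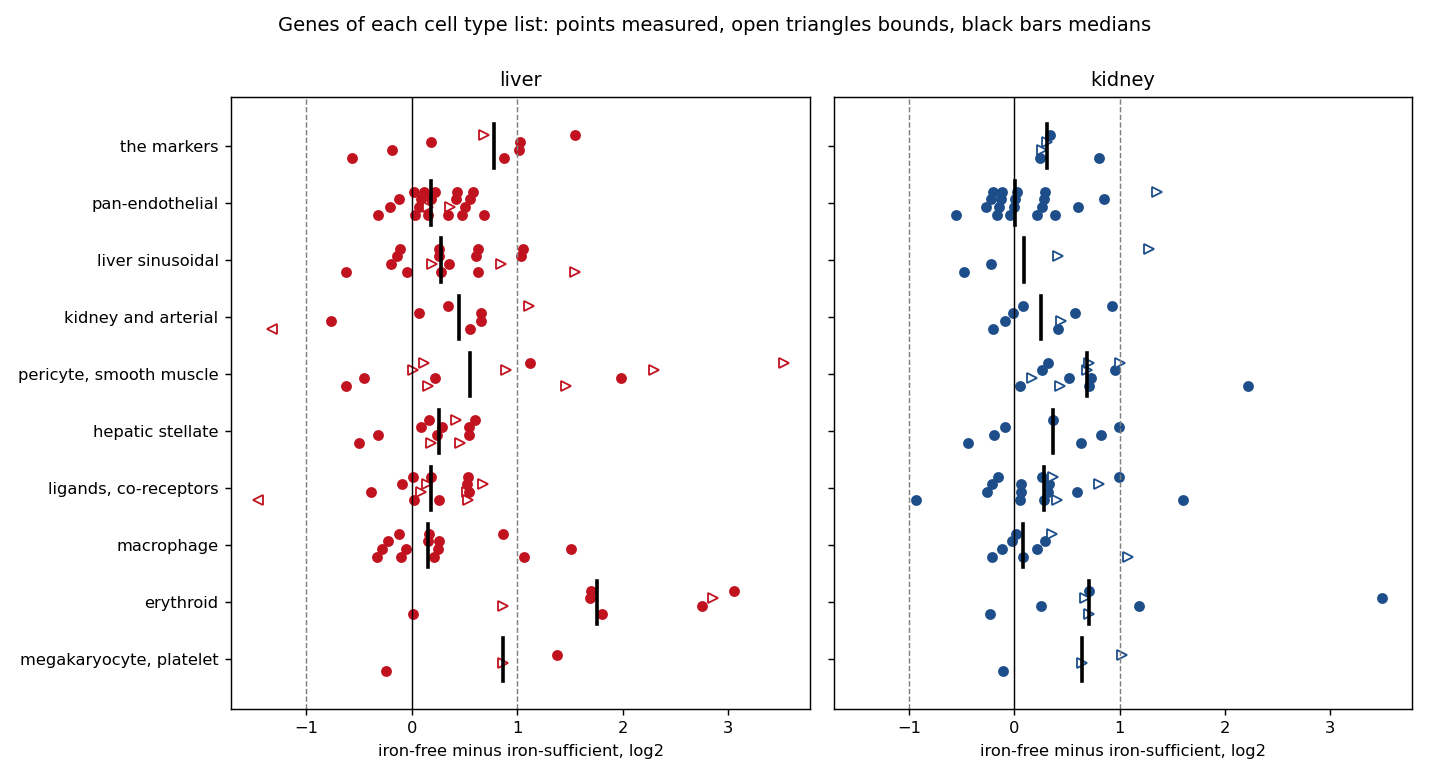
Iron-free minus iron-sufficient difference (log2) of each measured gene of the cell type lists in liver (left) and kidney (right), with filled points for genes measured on both arrays, open triangles for bounds, black bars for list medians and dashed lines at 2-fold. The pan-endothelial genes lie between the dashed lines in liver, the pericyte and smooth muscle genes reach 3.53 in liver and 2.22 in kidney, and the erythroid genes have the highest median in both tissues.

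Erythroid markers also differed between the diets, and their part in the vascular differences was not tested. In liver 6 of 8 measured erythroid markers were higher and 0 lower in the iron-free group, 5 of them among the 6 measured on both arrays (median 1.75; 3.32% of all genes so measured were higher), with a summed intensity of 436236 in iron-free against 329677 in iron-sufficient liver. Of these 5, Hbb read 135668 in iron-free against 41604 in iron-sufficient liver, a large part of the gap between the sums. Its 2 iron-sufficient liver spots were in noisy blocks, so it had no value left without them. The other Hbb probe was at 0.47, not a call. Most macrophage markers were not called in liver. Of 14, all measured on both arrays, 2 were higher, Lyz2 (1.51 ± 0.27) and Marco (1.07 ± 0.30), where 3.32% of all genes so measured were higher. The 2 iron-sufficient liver spots of Marco were in noisy blocks, so it had no value left without them. The macrophage median was 0.15, with a summed intensity of 76446 in iron-free against 70714 in iron-sufficient liver. Of 4 measured platelet markers Pf4 was 2.60-fold higher in iron-free liver, where 6.36% of all measured genes were higher. In kidney 2 of 7 erythroid markers were higher, Hbb (1.18 ± 0.21) and Ahsp, a chaperone of alpha globin, 11.2-fold higher. Both were measured on both arrays, where 1.40% of all genes so measured were higher. The other Hbb probe was well above background on both kidney arrays and stood at -0.13, so the probes of Hbb did not give the same direction. In kidney 1 of 9 macrophage markers (Timd4) and 1 of 3 platelet markers (Pf4, at least 2.03-fold) were higher, each through the iron-free array alone. Of all genes measured in kidney 3.06% were higher. Every liver diet value is set against the iron-sufficient liver array, which had the most noisy blocks.

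Of the ligands of the marker receptors, Vegfa alone was called between diets or with DFO, and in the cell line only. Vegfa, the ligand of the Kdr and Flt1 products, read 5586 in DFO-treated against 2275 in untreated FAO cells, 2.46-fold higher (1.30 ± 0.17), and its other 3 probes gave 0.90 to 1.35. In liver it read 2006 in the iron-free against 1378 in the iron-sufficient group (0.54 ± 0.26, with both iron-sufficient spots in noisy blocks), and its other 3 probes gave -0.12 to 0.07. In kidney it read 3865 in the iron-free against 3067 in the iron-sufficient group (0.33 ± 0.25). Apln, the ligand of the apelin receptor on endothelial cells, was 3.24-fold higher in DFO-treated than in untreated FAO cells and 3.03-fold higher in iron-free than in iron-sufficient kidney (1.60 ± 0.18). Angpt1, an angiopoietin that activates the Tek product, was at 0.06 ± 0.27 in kidney and had a bound of 0.68 in liver. Angpt2 and Pdgfb could not be measured in any diet or DFO comparison.

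Over the 30 ligands and co-receptors on the array, 2 of 11 measured were higher and 1 lower in DFO-treated FAO cells, the third being Sema3c (2.01-fold lower). Of all genes measured there, 4.03% were higher and 6.41% lower. In iron-free liver 0 of 16 were higher and 1 lower, Jag2, at least 2.76-fold, where 6.36% of all measured genes were higher and 2.93% lower. In iron-free kidney 1 of 17 was higher and 0 lower, where 3.06% of all measured genes were higher and 1.24% lower. Some genes of the vascular lists were expressed by the cell line itself. Plat, the tissue plasminogen activator, was 10.4-fold higher in DFO-treated than in untreated FAO cells (3.38 ± 0.18), and Mcam 6.43-fold higher (2.68 ± 0.74). Dnase1l3 was 2.55-fold (1.35 ± 0.76) and Mmrn2 2.34-fold higher (1.23 ± 0.76). Notch3 was at least 2.65-fold higher, a bound of 1.40 with a spot standard error of 0.83. Dnase1l3, Mmrn2 and Notch3 thus lay within 2 spot standard errors of 0. Eng, an endothelial co-receptor, was 3.95-fold lower (-1.98 ± 0.45), and at -0.37 without spots in noisy blocks.

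The genes whose pattern over the 6 arrays was most like each marker, Kdr apart, were found by the smallest root-mean-square distance between centred log2 values, among 11593 genes well above background on at least 2 arrays. They were Ecm1 and Fcna for Lyve1 (distances 0.32 and 0.35), Ido2 and F7 for Stab2 (0.21 and 0.23), Emid1 and Erg for Pecam1 (0.38 and 0.42), Ceacam4 and Prph for Rgs5 (0.35 and 0.39), and Jam2 and Marcks for Pdgfrb (0.25 and 0.28). For Cdh5, Fam90a1a and Tmem229b were nearest, at 0.07 each. These distances rest on 6 arrays that share 1 slide, with levels near background on both FAO arrays for most of the genes, and describe likeness of pattern only.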

How the data were processed

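Per the file headers, the authors scanned 6 one-colour arrays of design 028279 and extracted them with Agilent Feature Extraction 10.7.3.1, and the header names build rn4. The intensity taken from the deposited scanner files is gProcessedSignal, a linear signal after background subtraction. The authors' deposited table also holds a log2 value per probe, which was checked to be log2 intensity minus a value per array. For 97.1% to 98.3% of probes its intensity matched the geometric mean of the spots to a relative 0.0001.

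From the 58717 gene spots per array, a mean log2 intensity was taken per probe (30367 probes), without spots marked as outliers. Arrays were scaled to the 75th percentile over the 9091 probes (29.9%) well above background on all 6. The gene ID in the authors' table assigned 24272 probes to 19958 genes, and the brightest probe stood for a gene. Spot standard errors were pooled in 20 signal bins per array. Genes measured on neither array of a pair were left out, and bounds under 1-fold have no value and stay out of medians. Counts over genes measured on both arrays of a pair were added after the data were seen. Normexp in limma 3.58.1 (R 4.3.3, offset 50) used gMedianSignal, since gMeanSignal was not used here. Other steps ran in Python 3.11.15 with numpy 2.4.6 and pandas 2.3.3, and were tested on simulated data. Promoter sequences and current symbols come from RefSeq tables of GRCr8, and no coordinates of the array's build are given.

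The markers and all gene lists were chosen with earlier results of these data known. Genes were named by a rule: all markers, up to 3 called genes per list and comparison with the largest difference, Vegfa, Angpt1, Angpt2 and Pdgfb, the 2 genes nearest in pattern to each marker measured on at least 2 arrays (those of Kdr are not reported here), and Alb and Umod. Dnase1l3, Bmp2, Tagln and Mylk in the diet comparisons, Kcnj8 and Mcam in liver, and single noise values were named after their values were seen. Groups came from sample titles, and the alternatives tried were another percentile, the median of detected probes, normexp, the authors' log2 values, no noisy blocks, outlier spots kept, 2 filters on dim probes, the mean over probes and a 1.5-fold threshold. A noisy block was one whose median departure of spots from their probe's median was over 0.25. The number of arrays limits the precision.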

Additional observations from a re-analysis of the deposited data

Results flagged for a closer look

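Of 38 markers and named vascular genes with a diet value in both tissues, 3 had differences of opposite sign in liver and kidney, each larger than its spot standard error, and the difference between tissues was not tested. Aqp1, the water channel of proximal tubule and some endothelia, had an iron-free minus iron-sufficient difference of 0.66 in liver and -0.20 in kidney. Ctsl, a lysosomal protease, had 0.36 in liver and -0.48 in kidney. Without spots in noisy blocks Ctsl was at -0.07 in liver and -0.43 in kidney, so its signs were then alike. Igfbp3, a binding protein for insulin-like growth factors, had -0.76 in liver and 0.93 in kidney. None of the 6 values reached 2-fold, and none of the 9 markers was among these genes.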

How the results depend on the processing

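No paired analysis was possible because each group is 1 array of pooled RNA. For the same reason no replicate could be left out. Of 60 marker counts under other settings 47 stayed within 1.5 times the main count, and 0 differences turned from a call in one direction to the other. In the liver diet comparison 3 markers were called, against 1 with the 75th percentile over all probes, 1 with normexp, 1 with the authors' log2 values, 5 with the median of detected probes and 5 at 1.5-fold. In the kidney diet comparison 0 were called, against 1 with the median of detected probes, 1 where 1 of 2 spots sufficed, 1 with no filter and 1 at 1.5-fold. In FAO cells 0 were called with DFO, against 1 where 1 of 2 spots sufficed and 2 with no filter. Kidney over FAO cells had 3 calls and 8 with no filter, and liver over kidney had 4 and 2 with normexp. Summed over the other lists, the DFO comparison had 14 calls, against 26 where 1 of 2 spots sufficed, 33 with no filter and 26 at 1.5-fold. The liver diet comparison had 23, against 49 with the median of detected probes, 15 with normexp, 35 with no filter and 41 at 1.5-fold. The kidney diet comparison had 9, against 16 with the median of detected probes, 5 with normexp, 18 where 1 of 2 spots sufficed, 26 with no filter and 28 at 1.5-fold. Liver over FAO cells had 88 and 150 with no filter, and kidney over FAO cells had 83 and 158 with no filter. The median of detected probes moved all genes by 0.58 in the liver diet comparison, 0.20 in kidney, -0.58 for liver over FAO cells, -1.01 for kidney over FAO cells and 0.44 for liver over kidney, where the 75th percentile over all probes also moved them by 0.31 (-0.22 for kidney over FAO cells). Tek, and Stab2 in kidney, gave no signal well above background, which limits what can be said of them.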
